A study of Mus musculus with 2 samples.

Results

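Mir191 and Mir425 are 2 microRNA (miRNA) genes that lie next to each other on mouse chromosome 9. They were chosen by gene name, as the rows whose GENCODE M21 identifier belongs to Mir191 (ENSMUSG00000105497.1) or Mir425 (ENSMUSG00000065579.1), and they are 2 of the 2202 miRNA genes counted. Small RNA was sequenced from adrenal gland tissue of male B6CASTF1/J mice, an F1 hybrid strain, at 2 months of age. Total RNA was taken and RNA below 30 bases was kept. There was 1 group of 2 libraries, and the labels name no treatment, second tissue or second age. Replicate 1 came from the mouse numbered 3 and replicate 2 from the mouse numbered 4, and the labels call them biological replicates while giving both the same donor identifier. Differences between the libraries are therefore differences between 2 samples and not between conditions. On the strand of the gene, 5752428 reads were counted at miRNA genes in replicate 1 and 3333149 in replicate 2.

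A miRNA gene is transcribed as part of a longer RNA that folds into a hairpin, and the hairpin is cut into a short duplex with a 5p and a 3p arm. The strand that is loaded into an Argonaute protein pairs with messenger RNAs mainly through its seed, bases 2 to 8, and lowers their translation and stability. The miR-191 and miR-425 hairpins are commonly found in the same transcript. Both miRNAs are broadly expressed, and miR-191 is often used as a reference RNA when other miRNAs are measured by quantitative PCR.

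The sequences are shown because they are what the reads at each gene were counted for, and because they show that the pair is not a duplicated miRNA. Both genes were found by symbol in the RefSeq table of mouse miRNAs (build GRCm38.p6). In the hairpins the capitals mark the 5p and 3p mature arms, and in the mature miRNAs they mark the seed.
Mir191 hairpin: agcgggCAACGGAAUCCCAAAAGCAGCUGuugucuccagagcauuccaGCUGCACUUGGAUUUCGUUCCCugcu
Mir425 hairpin: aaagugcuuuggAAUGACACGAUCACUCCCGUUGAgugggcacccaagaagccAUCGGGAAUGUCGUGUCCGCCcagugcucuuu
mmu-miR-191-5p: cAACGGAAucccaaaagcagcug
mmu-miR-191-3p: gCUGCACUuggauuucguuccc
mmu-miR-425-5p: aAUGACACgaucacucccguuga
mmu-miR-425-3p: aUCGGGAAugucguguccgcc

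The 4 mature arms had 4 different seeds, so the neighbours do not belong to 1 seed family. Among the 1738 mature miRNAs of the table, no other one had the seed of miR-191-5p, miR-191-3p or miR-425-3p. The seed of miR-425-5p was shared with 1 other, the 3p arm of Mir489, which is shown for comparison.
mmu-miR-489-3p: aAUGACACcacauauauggcagc
Mir489 had no reads on its strand in either library. At these depths a count of 0 allows up to 0.522 CPM for replicate 1 and up to 0.900 CPM for replicate 2, where CPM are reads per 1000000 reads counted at miRNA genes. None of the 4 arms was found in a second hairpin of the table, and neither was the stretch of its first 18 bases. Reads that aligned to several places in the genome were not counted at genes, and a match elsewhere in the genome was not searched for. The counts are per hairpin gene, so reads of the 5p and 3p arms could not be told apart.

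The hairpins lie 384 bases apart on the plus strand (mm10, GENCODE M21). Mir191 is 74 bases long and lies on chromosome 9 at 108568319 to 108568392. Mir425 is 85 bases long and lies at 108568777 to 108568861. Their GC content is 54.1% each. The pair is usually described as intronic to Dalrd3, a gene whose product takes part in transfer RNA methylation, but the annotations differ on this. RefSeq places Dalrd3 at 108567484 to 108572773, which spans both hairpins. GENCODE M21, the annotation behind the counts, starts Dalrd3 at 108569886, which is 1025 bases past the end of Mir425. In GENCODE both hairpins lie in the single exon of the long non-coding transcript 4833445I07Rik-201 (108567533 to 108569174), and Mir191 also lies in the intron of transcript 4833445I07Rik-202. On the minus strand, the annotated miRNA gene Gm24083 (108568295 to 108568414) covers the whole of Mir191 and does not reach Mir425.

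**Figure D1:**
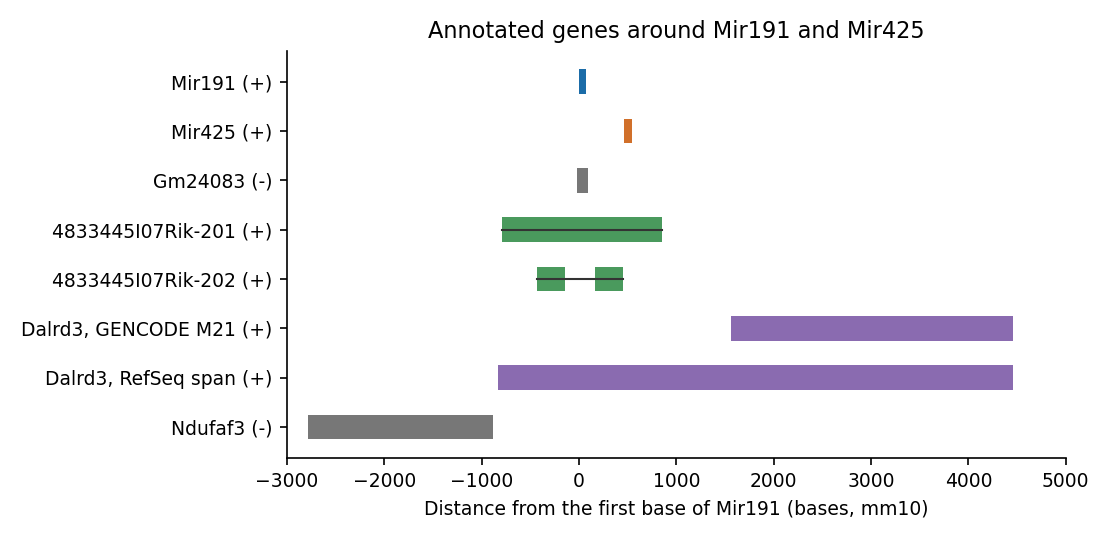
Annotated genes around the pair, drawn as distance in bases from the first base of Mir191, with the strand in brackets, boxes for hairpins, whole genes or the exons of 4833445I07Rik, and a line for its intron. Ndufaf3 ends before the pair. The GENCODE model of Dalrd3 begins 1025 bases past Mir425, the RefSeq span covers both hairpins, and Gm24083 covers Mir191 on the other strand.

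Reads of Mir191 appeared in only 1 of the 3 count columns of each library. These columns count all reads with strand ignored, those that match the strand of the gene, and those that match the other strand. At Mir191 the column for the gene's strand held 40083 reads in replicate 1 and 22884 in replicate 2. Both other columns held 0 in both libraries. Gm24083 gave the mirror image, with 0 reads on its own strand and 40083 and 22884 on the opposite strand. No read at this locus was thus counted on the strand of Gm24083. The column that ignores strand has a separate entry for reads that fall in more than 1 gene, and the Mir191 count equals 3.98% of that entry in replicate 1 and 4.84% in replicate 2. Of the 259 miRNA genes with a mean of 100 or more reads on their strand, 19 had 0 reads without strand in both libraries, and Mir191 stood at place 4 among those 19 by mean CPM. Mir425, which no annotated gene overlaps on the minus strand, held the same 3734 and 2871 reads with and without strand, and 0 on the opposite strand. With strand ignored, the member of the pair with more reads is thus listed at 0 and the one with fewer reads in full.

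**Figure D2:**
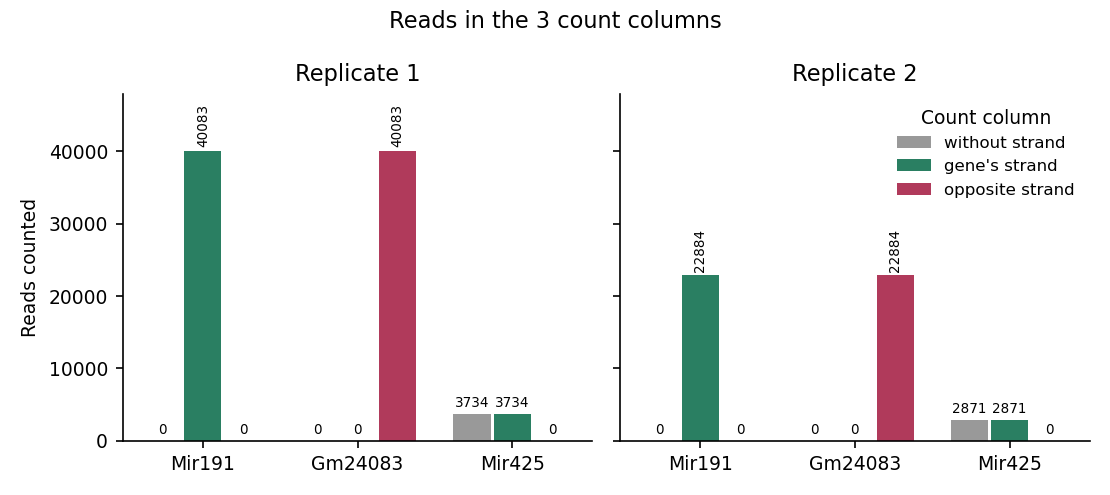
Reads counted at Mir191, at Gm24083 on the other strand and at Mir425, in the 3 count columns of each library, with the number above each bar. Mir191 has reads only in the column for its own strand, the same number appears at Gm24083 as opposite-strand reads, and Mir425 is the same with and without strand.

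On its own strand, Mir191 was among the miRNA genes with the most reads and differed little between the libraries in CPM. It had 6968 CPM in replicate 1 (exact Clopper-Pearson 95% interval 6900 to 7036) and 6866 CPM in replicate 2 (6777 to 6955), or 6917 ± 72.4 CPM (mean ± SD, n = 2). This is 0.692% of the reads at miRNA genes. The intervals of the libraries overlap. All such intervals cover counting error only and not the spread between samples. PCR copies of a molecule cannot be recognised in these reads and are counted as well. Mir191 ranked 27 of 2202 in both libraries. Reads that aligned to several places, 26.2% of all reads in replicate 1 and 28.8% in replicate 2, enter no rank.

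Mir425 was counted at a lower level and was higher in replicate 2. It had 649 CPM in replicate 1 (628 to 670) and 861 CPM in replicate 2 (830 to 893), or 755 ± 150 CPM (n = 2), which is 0.0755% of the reads. Here the intervals did not overlap, and the higher value was 1.33 times the lower. Mir425 ranked 93 in replicate 1 and 86 in replicate 2. The reads of the pair together came to 7617 CPM in replicate 1 against 7727 in replicate 2, a smaller difference than that of Mir425 alone. Mir191 made up 91.5% of these reads in replicate 1 and 88.9% in replicate 2, so the sum mainly follows Mir191.

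In the order of mean CPM, Mir191 stood among genes that varied more between the libraries than it did. Next above it were Mir30a, Mir29a and Mir744, and next below were Mir30e, Mir125a and Mir30d. Mir30a, of the miR-30 family, had 7573 and 6996 CPM and was above Mir191 in both libraries. The other 5 had ranges that overlapped that of Mir191, as for Mir125a with 4119 and 8839 CPM, so their order with Mir191 was not settled. In all, 22 genes were above Mir191 in both libraries, and 8 had an overlapping range. The neighbours of Mir425 were Mir532, Mir31 and Mir540 above it and Mir185, Mir154 and Mir15b below. All 6 overlapped the range of Mir425. The place of Mir425 was less exact, since 30 genes had a range that overlapped its own.

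**Figure D3:**
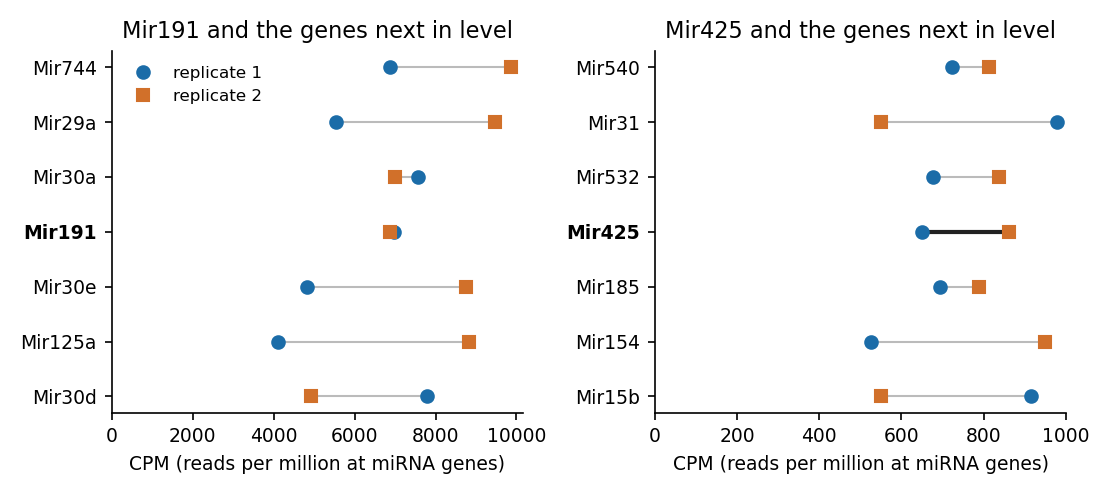
CPM in replicate 1 (circle) and replicate 2 (square) of Mir191, Mir425 and the 3 genes next above and next below each by mean CPM, with a line joining the libraries. The points of Mir191 lie at 6968 and 6866 CPM, closer together than those of its neighbours, while the range of Mir425, 649 to 861 CPM, overlaps those of all its neighbours.

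Within each library, Mir191 had many more reads than its neighbour Mir425. In replicate 1 the 40083 reads of Mir191 stood against 3734 of Mir425, a 10.7-fold difference, and in replicate 2 the 22884 reads stood against 2871, a 7.97-fold difference. The mean was 9.35 ± 1.95-fold (SD, n = 2), or 3.21 ± 0.30 on the log2 scale. Per base of the annotated hairpin, the ratio was 12.3-fold in replicate 1 and 9.16-fold in replicate 2. The 5p arms of both members have the same length, 23 bases. Of the reads of the pair, Mir191 made up 91.5% in replicate 1 (91.2 to 91.7, exact Clopper-Pearson) and 88.9% in replicate 2 (88.5 to 89.2). The log2 ratio was larger in replicate 1 by 0.43, with a 95% interval of 0.36 to 0.50 from counting error. This difference between the libraries uses only reads of the same library on each side and does not depend on how the libraries are scaled. With 2 libraries of 1 group there was no test over samples.

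Unequal counts of neighbouring miRNA genes were common in the gland, and the pair lay in the middle of the range. Pairs were defined as adjacent miRNA genes on 1 strand whose starts lie within 1000 bases and which both had a mean of 10 reads or more. There were 61 such pairs. Of the 60 others, 37 were more even than Mir191 and Mir425 and 23 were less even. The median of the 60 was 2.29 on the log2 scale, with a range of 0.0034 to 7.50, against 3.21 for Mir191 and Mir425 (with 0.5 reads added to each gene). Just more even was Mir183 over Mir96, of a cluster best known from sensory organs, at 3.10 ± 1.31 (SD, n = 2), and just less even was Mir351 over Mir503 on chromosome X at 3.26 ± 0.07. The SD of Mir191 over Mir425, 0.30, was between theirs. By reads, Mir191 and Mir425 stood at place 10 of the 61 pairs. The 2 pairs with the most reads had 5.42 ± 0.26 for Mirlet7b over Mirlet7c-2 and 5.32 ± 0.40 for Mir23a over Mir27a. Most of the pairs with more reads than Mir191 and Mir425 were less even than they were, as was Mir322 over Mir503 at 6.19 ± 0.047. Some were far more even, such as Mirlet7e over Mir99b at 1.11 ± 0.098 and Mir98 over Mirlet7f-2 at 0.19 ± 0.085. These examples were chosen after their values were seen. Genes with a copy number in the symbol, such as Mirlet7c-2 and Mirlet7f-2, can lose reads that align to several loci. Without pairs that hold such a gene, 29 of 45 other pairs were more even than Mir191 and Mir425. The change of the log2 ratio between the libraries, 0.43, was near the median change of the 60 other pairs, 0.45.

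**Figure D4:**
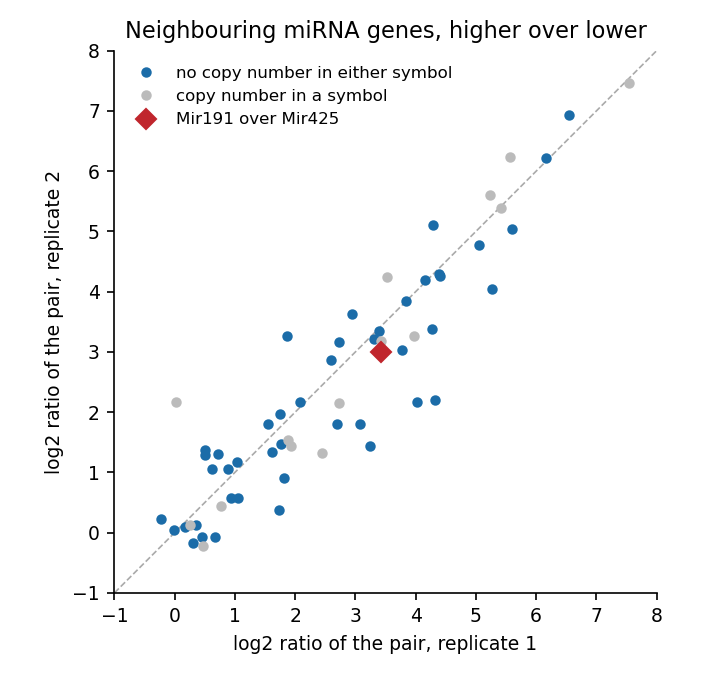
Log2 ratio of the higher over the lower gene in 61 pairs of neighbouring miRNA genes, in replicate 1 (x axis) and replicate 2 (y axis), with the pair of Mir191 and Mir425 as a diamond and the line of equal ratios dashed. The diamond lies at 3.42 and 2.99, among the other pairs and below the line.

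Between the libraries, the members differed in opposite directions under TMM scaling. Mir191 was 1.17-fold higher in replicate 1 and Mir425 was 1.16-fold higher in replicate 2. TMM is edgeR's trimmed mean of log ratios, which scales the libraries under the assumption that most genes do not differ. The log2 ratio of replicate 1 to replicate 2 was 0.22 for Mir191 (counting SE 0.01) and -0.21 for Mir425 (counting SE 0.04). An exact binomial test, two-sided, set each gene against counting error, and gave a Benjamini-Hochberg adjusted p of 2.77e-76 for Mir191 and 1.78e-08 for Mir425. Both members were thus called. So were 59.1% of the 389 genes tested, 30.8% as higher in replicate 1 and 28.3% as lower. A call was thus the more common outcome among these 389 genes. The share depended on the filter on reads. Without a filter 30.9% of 750 genes were called, and with a filter of 100 reads in mean 77.2% of 259 genes were. Of all 389 genes, 30.8% had a log2 ratio nearer to 0 than Mir191 and 29.8% had one nearer than Mir425.

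The scaling set the result for Mir191. TMM moved all log2 ratios up by 0.20 against total counts at miRNA genes. By total counts Mir191 had a log2 ratio of 0.02 (95% interval -0.0021 to 0.04, counting error) and was not called (adjusted p = 0.108, exact binomial test), while 65.6% of genes were. Only 8 of the 389 genes then lay nearer to 0. Mir425 then lay further from 0, at -0.41, and was called (adjusted p = 5.90e-29, exact binomial test). Mir425 was lower in replicate 1 under both scalings and under DESeq2 size factors (-0.22). When a common spread between samples was estimated from the same libraries (coefficient of variation 0.361) and used in edgeR's exact test, neither member was called, with an adjusted p of 1.0 for each, and 1.03% of genes were. That spread comes from treating both libraries as 1 group.

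Markers of some cell types differed far more between the libraries than the pair did, and their part in the values of Mir191 and Mir425 was not tested. The 3 erythroid markers, Mir451a, Mir144 and Mir486, had a summed level of 22813 CPM in replicate 1 against 901 in replicate 2, a ratio of 25.3. Most of this was Mir451a, with 21615 and 695 CPM. In the other lists with more than 1 gene, the markers did not all differ in the same direction under TMM. The 2 smooth muscle markers had a ratio of summed CPM of 0.983, set by Mir143 (31774 and 31884 CPM), while Mir145a had 984 and 1434 CPM. Both were lower in replicate 1 in CPM, but under TMM the log2 ratio was 0.19 for Mir143 and -0.34 for Mir145a. The 4 white blood cell markers had a ratio of summed CPM of 0.807. Among them Mir223 had 36.7 and 159 CPM and Mir150 had 688 and 901 CPM, while Mir142 (391 and 391 CPM) and Mir155 (318 and 326 CPM) were nearly level in CPM and were called higher in replicate 1 under TMM (log2 ratios of 0.20 and 0.16). The endothelial marker Mir126a had a ratio of 1.06 and the hepatocyte marker Mir122 one of 0.518. Every marker gene had reads in both libraries. The neuroendocrine markers, which the adrenal medulla can supply, had a summed level of 72445 CPM in replicate 1 against 51056 in replicate 2, a ratio of 1.42. That sum was mostly Mir375 (68780 and 46236 CPM), and Mir7b went the other way, with 3666 and 4819 CPM. The tissue was sequenced in bulk, so fewer cells of a type and less RNA per cell cannot be told apart.

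Among other miRNAs that serve as reference RNAs in quantitative PCR, some differed more between the libraries than either member under TMM, and some less. The list held 16 genes, of miR-16, miR-24, miR-25, miR-26a, miR-93, miR-103, miR-186, miR-320, miR-361, miR-423 and let-7a, and all 16 were tested. Under TMM 6 were called higher in replicate 1, 2 lower and 8 neither, with a median log2 ratio of 0.01, which is also the median over all genes tested. Over all 389 genes, 30.8% were called higher and 28.3% lower, which is 59.1% in all. By total counts 6 were higher and 5 lower, where 65.6% of all genes were called, with a median of -0.19 for the list and -0.19 for all genes. Mir320 had 7778 CPM in replicate 1 against 3705 in replicate 2, which is 1.27 on the log2 scale under TMM. Mir423, in contrast, had 2427 and 2779 CPM and a ratio of 0.00 (0.0037), and Mir93 had 1821 and 2057 CPM and a ratio of 0.02. Neither was called (adjusted p = 0.911 and 0.395, exact binomial test). Mir24-2 lay at the other end, with 114 and 303 CPM and a ratio of -1.21. Some of the 8 genes called neither way had few reads in replicates 1 and 2. These were Mir26a-1 (21 and 10), Mir103-1 (19 and 15), Mir26a-2 (91 and 62) and Mir103-2 (105 and 79). Their counting SE ran from 0.21 to 0.54 on the log2 scale, so only a large difference could be called.

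In level, none of the 16 exceeded Mir191 in mean CPM and 5 exceeded Mir425. In CPM, 0 of the 16 had a smaller ratio between the libraries than Mir191 and 9 had a smaller ratio than Mir425. Under TMM this order was not kept, since Mir423, Mir93 and Mir25, among others of the list, then lay nearer to 0 than either member. Of the 16 genes, 10 carry a copy number in the symbol, such as Mir16-1 and Mir103-2, and their counts leave out reads that align to several loci. Their levels are uncertain for this reason, while the arms of Mir191 and Mir425 occur in 1 hairpin of the table.

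**Figure D5:**
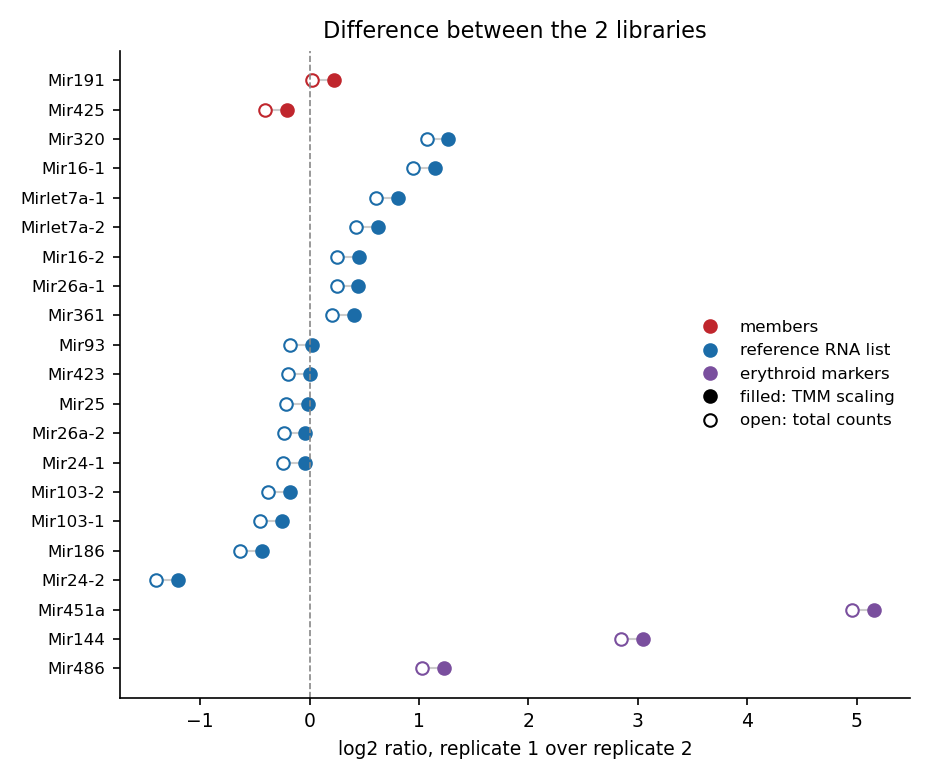
Log2 ratio of replicate 1 to replicate 2 for Mir191 and Mir425, the 16 genes of the reference RNA list and 3 erythroid markers, with TMM scaling (filled) and total counts (open), and a dashed line at 0. Mir191 lies at 0.22 and 0.02 and Mir425 at -0.21 and -0.41, while the erythroid markers reach 5.16.

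Genes with the same pattern as a member were sought among those with a mean of 1000 reads or more, by the distance of their TMM log2 ratios. With 2 libraries a pattern is 1 ratio, so likeness is a weak description and many genes come near. Nearest to Mir191 of 143 genes were Mir382 (4845 and 4777 CPM), Mir671 (793 and 783 CPM) and Mir598 (454 and 445 CPM), all within 0.0077 of its log2 ratio. Nearest to Mir425 were Mir99a (10693 and 14136 CPM), Mir339 (299 and 400 CPM) and the neuroendocrine gene Mir7b (3666 and 4819 CPM), within 0.01 (0.0133). None of these is a neighbour of the pair in the genome, and Mir425 was not among the genes nearest to Mir191.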

How the data were processed

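The authors deposited raw counts of reads at each miRNA gene, 1 file for each library, with mm10 and GENCODE M21 named in the description deposited with each library. Which aligner, counter and trimming made them is not given in the sources used here. The 4 leading rows, which name no gene and held 66.2% of the reads of replicate 1 and 69.0% of those of replicate 2, stayed out of totals and tests. CPM were taken over the column for the gene's strand. The libraries were compared by exact binomial tests on genes with a mean of at least 10 reads, with library sizes scaled by TMM. Log2 ratios had 0.5 reads added, and genes with a Benjamini-Hochberg adjusted p below 0.05 were called. The test was checked on simulated data. p-values measure only counting error between 2 samples.

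The members and lists were chosen with earlier results of these data known. Named genes were the members, their 3 neighbours in level on each side, the 3 nearest in ratio, overlapping genes, genes of the same seed, reference RNAs, cell type markers and 4 named pairs. Alternatives covered strand, denominator, scaling, filters, added reads, dispersion and pair distance. Python 3.11.15, SciPy 1.17.1, R 4.3.3, edgeR 4.0.16 and DESeq2 1.42.0 were used.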

Additional observations from a re-analysis of the deposited data

How the results depend on the processing

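Of 45 alternative values, 33 were counted as the same, by a rule that differed between results. Levels and the ratio of the pair had to move by less than their SD. Log2 ratios between the libraries had to keep direction and call. The number of genes called had to stay within a set fold limit. The median of the list had to keep its sign and move by less than its own size. The position among pairs had to stay within the exact 95% interval of its share. The level of Mir191 in CPM, 6917, became 0 when reads were counted without strand, 2243 with all reads as the denominator, and 16448 without the 10 leading genes in the denominator. For Mir425, 755 CPM became 243 and 1786 in the latter cases, and 895 without strand. Leaving out replicate 1 or replicate 2 gave 6866 to 6968 CPM for Mir191, 649 to 861 CPM for Mir425 and 2.99 to 3.42 for their log2 ratio. With 2 libraries these are the values of each library, which lie within the SD of their mean in any case. They are among the 33 but test nothing. With 5 reads added, the exact binomial p of Mir191 and Mir425 and the 230 genes called were identical to the main setting. Only the log2 ratios moved, so these alternatives, also among the 33, did not test the calls. Without strand no ratio to Mir191 could be computed. The log2 ratio of Mir191 between the libraries lost its call by total counts (0.021), and with a common dispersion in edgeR's exact test the calls of Mir191 (0.22) and Mir425 (-0.21) were lost and 4 genes were called in place of 230. The median log2 ratio of the reference list, 0.01, turned to -0.19 by total counts, was 0.20 over the 12 genes left by a filter of 100 reads and 0.20 over the 14 left without strand. Beyond the scaling and the number of genes or samples, the cause was not tested. Mir191 and Mir425 were less even than 58.5% to 66.7% of the other pairs; leaving out a replicate, or pairs with a copy number, was chosen after seeing the data. With 2 libraries, the spread between samples is known only roughly.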
